A study of Mus musculus with 6 samples.

Results

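The genes described here carry calcium across an epithelium: the entry channels Trpv5 and Trpv6, the cytosolic calcium binders S100g, Calb1 and Calb2, and the exit proteins Atp2b1, Atp2b4 and Slc8a1. They were chosen by name, and they are 8 of the 20145 genes that could be named on the array. Between them they had 13 probes, and 6 of the 8 genes could be tested. The 6 RNA samples, each on its own array, came from whole uteri at gestation day (GD) 3.5. The 3 Sox17 f/f samples were from mice with the floxed Sox17 allele without a recombinase, and the 3 Sox17 ed/ed samples were from mice with the same floxed allele and Ltf iCre, which is driven from the lactoferrin locus and deletes the gene in the uterine epithelium from puberty onward. All were females mated at 8 to 10 weeks of age and killed 3 days after the plug, and the uteri were frozen without embryos.

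In a calcium-transporting epithelium, calcium enters the cell through TRPV5 or TRPV6 in the apical membrane, is carried through the cytosol by a calbindin, and leaves at the basolateral side through plasma membrane calcium pumps and the sodium-calcium exchanger. S100g encodes calbindin-D9k, Calb1 encodes calbindin-D28k and Calb2 encodes calretinin, all of them EF-hand proteins. In the rodent uterus both calbindins are made in the epithelium and respond to ovarian steroids.

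S100g and Trpv6, the members well above background on every array that fell, are shown with their promoters. S100g had the largest fall, and Trpv6 is the entry channel, whose smaller fall was less firm, as given below. Each sequence is from RefSeq on GRCm38.p6 and runs 5′ to 3′ on the gene's strand from 250 bases before to 50 bases after the start of the gene. Capitals mark the core letters of a SOX motif, ACAAT, or the same letters on the other strand, ATTGT. The S100g promoter is chrX:162964550-162964849 on the minus strand, and the Trpv6 promoter is chr6:41636356-41636655 on the minus strand.
S100g: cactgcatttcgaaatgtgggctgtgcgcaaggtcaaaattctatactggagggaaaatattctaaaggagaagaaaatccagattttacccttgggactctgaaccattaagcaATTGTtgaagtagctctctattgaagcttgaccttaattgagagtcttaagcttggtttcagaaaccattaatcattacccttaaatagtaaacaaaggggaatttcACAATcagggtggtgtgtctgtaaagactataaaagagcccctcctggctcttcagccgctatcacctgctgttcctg
Trpv6: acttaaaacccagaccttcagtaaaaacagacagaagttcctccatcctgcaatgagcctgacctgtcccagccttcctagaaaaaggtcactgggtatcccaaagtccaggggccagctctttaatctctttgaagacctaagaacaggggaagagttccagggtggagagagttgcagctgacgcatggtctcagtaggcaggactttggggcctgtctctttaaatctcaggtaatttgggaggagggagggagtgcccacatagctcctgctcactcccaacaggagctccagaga
The S100g promoter held 2 matches, at bases 116 to 120 and 223 to 227, and the Trpv6 promoter held 0. Only ACAAT and ATTGT were searched as a SOX motif, and other forms of the motif were not. ACAAT on either strand was found in 31.0% of 32851 promoters of this length. Promoters were found for 6 of the 8 members, and those of Atp2b4 and Slc8a1 held 1 match each. The palindromic estrogen response element, the progesterone response element and the vitamin D response element, each searched as its exact consensus on both strands, were in none of the members' windows, and in 0.0700%, 0.475% and 0.00609% of all promoters.

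Between 56.8% and 65.7% of the spots on an array were well above background, with the Sox17 f/f arrays at 60.7% or more and the Sox17 ed/ed arrays at 59.4% or less. No spot was saturated (0 on each array). On the normalized log2 scale Sox17 itself averaged 12.17 in Sox17 f/f and 9.72 in Sox17 ed/ed uteri, with SDs of 0.09 and 0.11 over 3 arrays each. The arrays lay on 1 slide with each genotype in its own line, so position on the slide and genotype cannot be told apart. Levels below are quantile normalized log2 intensities, and a change is Sox17 ed/ed minus Sox17 f/f on that scale, tested with limma and called at an adjusted p under 0.05. The smallest p that exact permutation allows for any gene, at 3 arrays against 3, is 0.1.

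Of the 6 members tested, 3 fell in Sox17 ed/ed uteri (S100g, Calb1 and Trpv6), 0 rose and 3 were not called. Over all 14842 genes tested, 10.1% were called lower and 8.84% higher. Calb1 passed the filter on dim probes only through the Sox17 f/f arrays, and of the 5 members well above background in both genotypes 2 were called lower. The median change of those 5 was -0.18, which is the value of Atp2b1, a gene not called, against -0.00164 over all genes tested. None of the 3 exit genes was called.

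**Figure D1:**
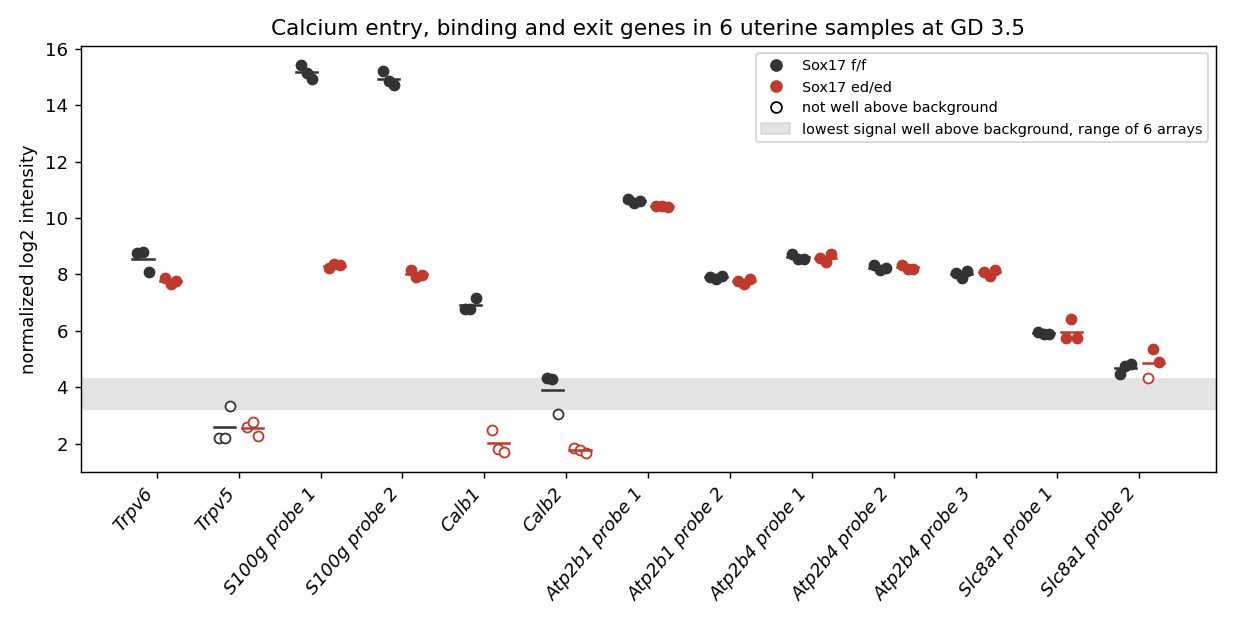
Normalized log2 intensity of each of the 13 probes on each of the 6 arrays, with a line at the mean of 3 arrays and open circles for arrays not well above background. Both S100g probes sit between 14.71 and 15.41 in Sox17 f/f uteri and between 7.92 and 8.38 in Sox17 ed/ed uteri, whereas the probes of the exit genes differ little between genotypes.

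Trpv6, the apical calcium channel of gut, placenta and uterus, was 8.77, 8.80 and 8.07 in Sox17 f/f uteri and 7.89, 7.66 and 7.77 in Sox17 ed/ed uteri. The groups lay apart, but the lowest Sox17 f/f array was closer to the Sox17 ed/ed arrays than to the other two. The change was -0.78 (standard error 0.20, 95% confidence interval -1.27 to -0.28, limma adjusted p = 0.0463), a fall of 1.71-fold. The call rested on the setting: the adjusted p was 0.00195 without Sox17 f/f replicate 3, and it was 0.131, 0.122, 0.0948, 0.123 and 0.114 without Sox17 f/f replicate 1, Sox17 f/f replicate 2 and Sox17 ed/ed replicates 1, 2 and 3. It was 0.0897 without the filter on dim probes.

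Trpv5, the related channel of the kidney tubule, was 2.21, 2.20 and 3.35 in Sox17 f/f uteri and 2.60, 2.79 and 2.28 in Sox17 ed/ed uteri. None of the 6 arrays was well above background, so Trpv5 was not tested and no fold is given.

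Among the binders, S100g moved most. It was 15.41, 15.14 and 14.92 in Sox17 f/f uteri and 8.22, 8.38 and 8.34 in Sox17 ed/ed uteri, all 6 arrays well above background. The processed signal behind these values was 43080, 38594 and 33168 against 299, 313 and 329. The groups were far apart and the arrays of each were close, at 15.16 ± 0.24 (SD, n = 3) and 8.31 ± 0.08 (SD, n = 3). S100g fell by 6.84 on the log2 scale (standard error 0.13, limma adjusted p = 9.18e-06), or 115-fold, and was still measured in Sox17 ed/ed uteri. The uterus was measured whole, so fewer cells that express a gene and less RNA in each cell cannot be told apart.

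The second S100g probe, assigned to the same transcript, read 15.19, 14.87 and 14.71 in Sox17 f/f uteri and 8.16, 7.92 and 7.97 in Sox17 ed/ed uteri. Its change was -6.91, or 120-fold. Of the 13854 genes well above background on all 6 arrays, 1 had a lower log2 fold change than S100g, the serine protease gene Prss28.

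Calb1 was 6.78, 6.77 and 7.18 in Sox17 f/f uteri, and it was 2.50, 1.82 and 1.73 in Sox17 ed/ed uteri, where none of the 3 arrays was well above background. The level in Sox17 ed/ed uteri is thus only an upper limit. Calb1 was at least 6.42-fold lower in Sox17 ed/ed uteri (limma adjusted p = 7.19e-05). After normexp background correction the bound was 2.78-fold. When the filter on dim probes was repeated with any 1 Sox17 f/f array left out, Calb1 no longer passed the filter and was not tested; with the probe kept, it was called without each of those arrays (largest adjusted p = 0.000617).

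Calb2, a calcium binder best known in neurons and mesothelium, was 4.35, 4.31 and 3.04 in Sox17 f/f uteri and 1.84, 1.79 and 1.69 in Sox17 ed/ed uteri. Well above background were 2 of the 3 Sox17 f/f arrays and none of the Sox17 ed/ed arrays, so the gene did not pass the filter and no fold is given. All 3 Sox17 f/f values were higher than all 3 Sox17 ed/ed values, at a level where most arrays did not measure the gene. Of 5 mesothelial markers 3 rose and 1 fell, with a summed level of 13.70 to 13.78 in Sox17 f/f and 13.97 or more in Sox17 ed/ed uteri. Wt1 makes up nearly all of that sum, at 13.68 and 13.94, and Krt5, 1 of the 3 that rose, was not well above background in Sox17 f/f uteri and is also a squamous marker. The part of these markers in the Calb2 values was not tested.

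The RNA levels of the exit genes were close in both genotypes. Atp2b1, the plasma membrane calcium pump of most tissues, was 10.66, 10.52 and 10.60 in Sox17 f/f uteri and 10.41, 10.44 and 10.38 in Sox17 ed/ed uteri. The groups lay apart, as they did with Sox17 ed/ed lower for 21.0% of all genes tested, but the change of -0.18 (95% confidence interval -0.34 to -0.02, limma adjusted p = 0.110) was not called. The other Atp2b1 probe changed by -0.14, and its groups overlapped.

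Atp2b4, another plasma membrane calcium pump, was 8.71, 8.56 and 8.55 in Sox17 f/f uteri and 8.59, 8.43 and 8.74 in Sox17 ed/ed uteri. Its change was -0.02 (95% confidence interval -0.26 to 0.22, limma adjusted p = 0.918), and its other probes changed by 0.01 and 0.06. The groups overlapped at all 3 probes, and the interval excludes a fall of the size seen for Trpv6.

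Slc8a1, the sodium-calcium exchanger NCX1, was 5.97, 5.91 and 5.91 in Sox17 f/f uteri and 5.76, 6.43 and 5.76 in Sox17 ed/ed uteri. Its change was 0.05 (95% confidence interval -0.40 to 0.51, limma adjusted p = 0.876), and the other probe changed by 0.17. One Sox17 ed/ed array lay above the rest at both probes.

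**Figure D2:**
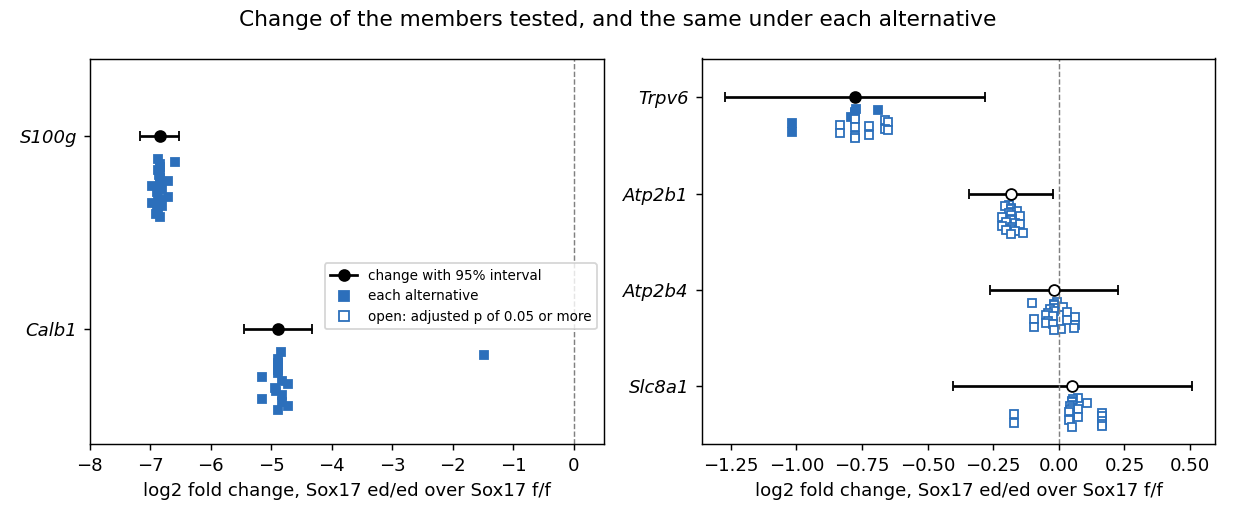
Log2 fold change of the 6 members tested, Sox17 ed/ed over Sox17 f/f, with its 95% confidence interval (circles) and the value under each alternative processing (squares, open where the adjusted p was 0.05 or more). S100g stayed between -6.97 and -6.59, the fitted value of Calb1, which rests on Sox17 ed/ed arrays not well above background, moved to -1.48 after normexp background correction, and Trpv6 lost its call in 13 of 21 alternatives.

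Markers of the cell types in the organ moved with genotype as well. Of 8 uterine epithelial markers, 4 rose (Krt19 by 2.10, Krt7 by 1.46, Krt8 by 0.69 and Cdh1 by 0.59), Cldn3 fell by 1.16 and 3 were not called, among them Epcam (0.10). Their summed log2 level was 15.53 to 15.59 in Sox17 f/f uteri and 15.62 to 15.93 in Sox17 ed/ed uteri. The most abundant keratins carry most of that sum, with Krt18 at 14.70 and 14.54 and Krt19 at 12.02 and 14.12, the Sox17 f/f mean first.

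Of 6 endothelial markers 4 fell and 0 rose, with a summed level of 13.82 to 14.10 against 13.31 to 13.49. Of 7 smooth muscle markers 2 fell and 0 rose, with 18.92 to 19.06 against 18.49 to 18.76. Of 7 stromal markers 1 fell and 0 rose. Of 4 oviduct markers, Ovgp1 fell by 2.92, Dnah5 fell by 2.82 with 1 of 3 Sox17 ed/ed arrays well above background, and Foxj1 rose by 2.44 with 1 of 3 Sox17 f/f arrays well above background. Their summed level of 10.64 to 11.34 in Sox17 f/f uteri was 8.67 to 8.93 in Sox17 ed/ed uteri. Of 3 exocrine pancreas markers tested 2 fell and 0 rose, with a summed level of 8.61 to 8.79 against 7.98 to 8.31. The part of these markers in the members' changes was not tested. Among 5 kidney tubule markers, chosen because the kidney uses the same transport route, 3 were tested. Slc12a3, the sodium-chloride cotransporter, was at least 2.26-fold lower (limma adjusted p = 0.00177), with none of the 3 Sox17 ed/ed arrays well above background. Aqp2 (-0.15, limma adjusted p = 0.501) and Slc34a1 (-0.05, limma adjusted p = 0.930) were not called, and Umod and Slc12a1 did not pass the filter.

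**Figure D3:**
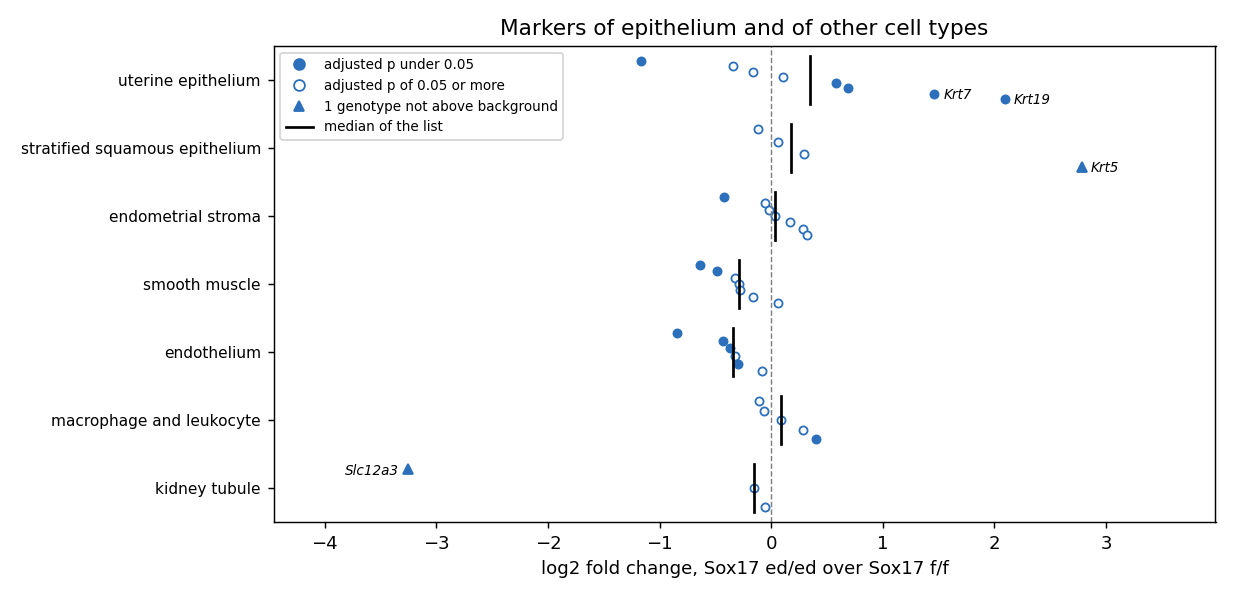
Log2 fold change of each marker gene tested, Sox17 ed/ed over Sox17 f/f, for the cell types drawn, filled where the adjusted p was under 0.05, with a line at the median of each list. Epithelial markers spread from -1.16 to 2.10 around a median of 0.34, and endothelial markers all lie below 0. Triangles are fitted values of genes that no array of 1 genotype measured well above background, Krt5 and Slc12a3, and are not the size of the change.

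The wider calcium-handling genes went both ways. Of 105 genes in 7 lists, 91 were tested, and 12 rose, 11 fell and 68 were not called. That is 25.3% called, against 18.9% of all genes tested, and the median change was 0.01. The count of genes that fell depended on the processing, at 4 without the filter on dim probes, and on single arrays, at 3 without any 1 of the Sox17 f/f arrays and at 4 and 5 without Sox17 ed/ed replicates 1 and 2. The count that rose was 7 without Sox17 ed/ed replicate 1 and 7 without Sox17 ed/ed replicate 3. Of the called genes named below, Trpc1 lost the call in 17 of 20 refitted alternatives, Casq2 in 16, Atp2b2 in 15, Slc8a2 in 14 and Cacna1h in 13. Ryr1 lost it in 12 of 20, Pthlh in 11, Bsg in 9, Wnk4 in 8 and Stim1 in 3, and Casq1 lost it in 8 of 16. Stim1, Cacna1h, Trpc1, Slc8a2, Bsg, Casq2, Wnk4 and S100a11 fell short of the study's threshold of 1.4-fold. S100a11 kept the call in every refitted alternative. The other called genes named below kept the call in every alternative that tested them.

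Of 16 other entry channels and their sensors, 1 rose and 3 fell. Trpv4, a calcium-permeable channel that responds to cell swelling, was 10.11, 9.93 and 10.07 in Sox17 f/f uteri and 11.69, 11.46 and 11.54 in Sox17 ed/ed uteri. It rose by 1.53 (standard error 0.09, limma adjusted p = 0.000154), the opposite direction to Trpv6. Stim1, the sensor of store calcium, fell by 0.38, Cacna1h, a T-type channel, by 0.37 and Trpc1 by 0.25.

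Of 12 genes listed here for partners of TRPV5 and TRPV6, 3 rose and 0 fell. The scaffold genes Pdzk1 and Slc9a3r1, whose proteins hold transporters at the apical membrane, rose by 2.47 (limma adjusted p = 0.000413) and 0.87 (limma adjusted p = 0.00521), and the kinase gene Wnk4 rose by 0.47. Anxa2 (0.11, limma adjusted p = 0.549) and S100a10 (0.06, limma adjusted p = 0.637), which encode a complex that carries the channels to the membrane, were not called.

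Of 16 other genes for EF-hand and calcium-binding proteins, 1 rose and 2 fell. Calml3, an epithelial calmodulin-like protein, was 5.47, 5.14 and 4.62 in Sox17 f/f uteri and 11.06, 10.95 and 10.67 in Sox17 ed/ed uteri. It rose by 5.81 (standard error 0.23, limma adjusted p = 3.47e-05), so a calcium binder rose while S100g fell. Of 7 markers of stratified squamous epithelium, 4 were tested and 1, Krt5, was called. Krt5 was at least 5.25-fold higher (limma adjusted p = 0.0445) with none of the 3 Sox17 f/f arrays well above background. Its Sox17 ed/ed values spread widely, at 7.80, 4.94 and 5.33. The bound uses their mean, and the Krt5 call was not refitted under the alternatives. The summed level of the squamous markers was 11.29 to 11.55 against 11.30 to 11.44, and Ivl was not tested for lack of signal. Trp63 makes up nearly all of that sum, at 11.38 and 11.26, so the sum says little about the other squamous markers. By quantitative PCR the study reports more Trp63 mRNA in Sox17 ed/ed uteri, which this probe did not show. The part of these markers in the Calml3 rise was not tested. Casq1, a calcium store protein of muscle, was at least 1.82-fold lower (limma adjusted p = 0.0389 for the fitted change of -1.52). None of the 3 Sox17 ed/ed arrays was well above background for Casq1. After normexp background correction its fitted change was -0.36, a smaller fall than that bound. Casq2 fell by 0.41.

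Of 13 other S100 genes, 2 rose and 0 fell. S100a14 was 4.35, 3.65 and 4.81 in Sox17 f/f uteri, of which 2 arrays were well above background, and 8.96, 8.77 and 9.14 in Sox17 ed/ed uteri. The change of S100a14 was 4.69 (standard error 0.29, limma adjusted p = 0.000189). S100a11 rose by 0.43. S100g was the S100 gene outside this list, and none of the 13 fell with it.

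Of 8 other plasma membrane pumps and exchangers, 2 rose and 2 fell. Slc24a4, a potassium-dependent sodium-calcium exchanger, was 7.11, 6.99 and 7.55 in Sox17 f/f uteri and 3.38, 4.38 and 3.80 in Sox17 ed/ed uteri, where no array was well above background. It was at least 7.88-fold lower (limma adjusted p = 0.000563 for the fitted change of -3.36). After normexp background correction the fitted change was -1.32, a smaller fall than that bound. Slc8a2 fell by 0.37, and Atp2b2 and Bsg, a partner of the plasma membrane pumps, rose by 0.50 and 0.32.

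Of 16 genes of internal stores, 3 rose and 3 fell. Itpr2, an inositol trisphosphate receptor that releases store calcium, fell by 1.30 (standard error 0.08, limma adjusted p = 0.000177), and Itpr3, another receptor of the same family, rose by 0.63 (limma adjusted p = 0.00166). Atp2c2, which encodes a Golgi calcium pump, fell by 1.69 (limma adjusted p = 0.00822), with 2 of 3 Sox17 ed/ed arrays well above background. Its change was -0.56 after normexp background correction. Ryr1 rose by 0.57.

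Of 10 calciotropic hormones and receptors, 0 rose and 1 fell, Pthlh, which encodes parathyroid hormone-related protein, by 0.93 (limma adjusted p = 0.0468). In RNA of the whole uterus, the receptor genes for the hormones that act on calbindin genes were not called. Esr1 changed by -0.04 (limma adjusted p = 0.738), Pgr by 0.01 (limma adjusted p = 0.947) and Vdr by 0.05 (limma adjusted p = 0.939). These values do not measure protein. By immunohistochemistry the study reports more total and phosphorylated estrogen receptor in epithelium and stroma of Sox17 ed/ed uteri. It also reports less progesterone receptor in both compartments.

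**Figure D4:**
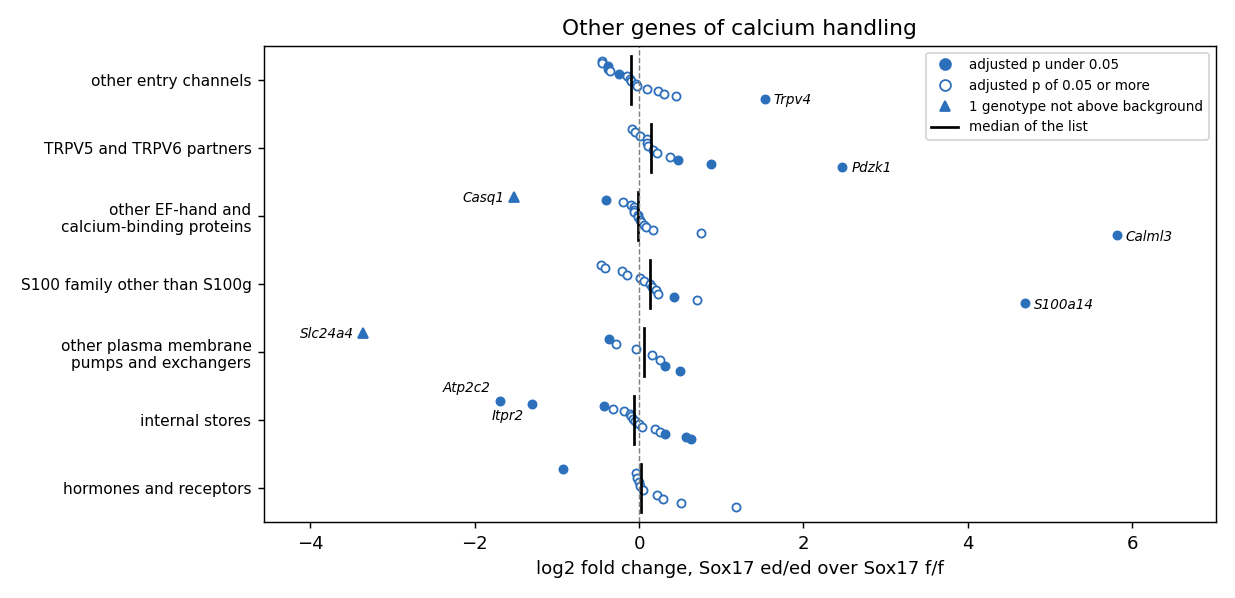
Log2 fold change of each other calcium-handling gene tested, Sox17 ed/ed over Sox17 f/f, by list, filled where the adjusted p was under 0.05, with a line at the median of each list. The medians lie between -0.10 and 0.14, while Calml3 (5.81) and S100a14 (4.69) stand far from their lists. Triangles are fitted values of genes that no array of 1 genotype measured well above background, such as Slc24a4, and are not the size of the change.

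The genes whose profile over the 6 arrays was most like a member were found by the root mean square difference of log2 levels after each gene's own mean was removed. For S100g they were Cyp3a25 (0.360), Prss28 (0.361) and Slc5a11 (0.363). For Calb1 they were Il6 (0.210), Slc13a5 (0.255) and Rims3 (0.260). No Sox17 ed/ed array measured Cyp3a25, Il6 or Rims3 well above background, as was the case for Calb1, so part of that likeness lies at the background.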

How the data were processed

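Whole uterine RNA (3 Sox17 f/f samples, 3 Sox17 ed/ed samples) was hybridized to 6 Agilent arrays (G3 Mouse GE, single colour), and the genotype in the labels set the groups. The authors deposited the scanner intensity of each spot, made with Feature Extraction 11.0.1.1 per the file headers (the submitters' processing notes give 9.1); the processed signal was background-subtracted and detrended but not normalized across arrays. The deposited processed intensity table lay within 0.191% of the mean processed signal of each probe.

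From these, log2 intensities were quantile normalized, the method the study names, with control and outlier spots left out (169 to 302 outliers an array). Probes well above background on at least 3 arrays were kept. Accessions named 26582 of 55681 probes, through a RefSeq gene table of GRCm38.p6. The array design uses another build, so no probe coordinates are given, and the promoter positions above are on GRCm38.p6. The brightest probe stood for a gene. Where no array of a genotype measured a gene well above background, a bound is given: the brighter genotype's mean against, for each dimmer array, its own signal or the least signal that counts as well above background, whichever is larger. A p-value beside a bound tests the fitted change, not the bound. The Calb1 bound alone was recomputed under other processing. limma 3.58.1 (R 4.3.3) with Benjamini-Hochberg adjustment over 14842 genes gave the tests. Only this fit was tried on simulated data, not the normalization, the filters, the choice of probe or the bounds. Python 3.11.15 with pandas 2.3.3, numpy 2.4.6 and matplotlib 3.10.9 drew the figures. The labels number the samples of a genotype as replicates without naming the animals, so p-values measure only the spread between these samples, which may be technical, and the number of arrays limits the precision.

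The members and lists were chosen with earlier results of these data known. Besides the members and Sox17, up to 4 called genes with the largest change are named per list, with Esr1, Pgr, Vdr, Anxa2 and S100a10 and the 3 genes most like S100g and Calb1; markers were named after their values were seen. Alternatives were a 75th percentile shift, normexp with an offset of 50 (on the median spot signal, since the files used here hold no mean signal), other probe filters and rules, an intensity trend, the deposited table, the replicate number as a block, the study's thresholds of p under 0.01 and 1.4-fold, and each array left out. Added after seeing the data were adjustment over all kept probes and, since leaving out a Sox17 f/f array took Calb1 out of the filter, the same omissions with probes kept as chosen on 6 arrays.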

Additional observations from a re-analysis of the deposited data

How the results depend on the processing

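S100g kept its direction and its call in all 22 alternatives, from -6.97 to -6.59, and Calb1, called on fitted values, in the 17 that tested it. With the filter repeated on 5 arrays, Calb1 was not tested without any 1 Sox17 f/f array, nor with probes required well above background on all 6 arrays; keeping the probes as chosen on 6 arrays, an alternative added after seeing that result, it was called each time. The Calb1 bound moved to 1.48 on the log2 scale after normexp. Trpv6 kept its direction, and lost its call at -0.78 without the filter (adjusted p = 0.0897), with the replicate block (0.0688) and adjusted over all kept probes (0.0746); without single arrays, in the order Sox17 f/f replicates 1, 2 and 3 and Sox17 ed/ed replicates 1, 2 and 3, it was -0.66, -0.65, -1.02, -0.83, -0.72 and -0.78, with adjusted p from 0.00195 to 0.135. Atp2b1, Atp2b4 and Slc8a1 were called in none of the alternatives.

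Members called lower numbered 1 to 3 without single arrays, against 3 (1 to 2 with the filter repeated, 2 to 3 with the probes kept). Calcium-handling genes called lower numbered 4 without the filter, 7 with the replicate block, 5 at the study's thresholds and 3 to 9 without single arrays, against 11, and those called higher 7 to 11, against 12. Over all genes, 963 were called lower with the replicate block and 960 at the study's thresholds, against 1496. Without single arrays 783 to 1233 were called lower and 804 to 1326 higher, against 1312 higher with all arrays. With the probes kept, 858 to 1317 were called lower and 793 to 1309 higher, at 949 lower and 863 higher without Sox17 ed/ed replicate 1 and 861 higher without Sox17 ed/ed replicate 3. The deviations of same-numbered samples from their genotype means had correlations of 0.0628, -0.114 and -0.000291, in the order of the numbers. The labels do not say what the numbers stand for, and whether they pair the samples was not tested. Of 637 values of 33 other named genes under the refitted alternatives, 126 lost a call and 0 reversed. Signal over background limits Calb1, Calb2 and Trpv5.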
